A study of Mus musculus with 12 samples.

Results

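A set of 10 genes that carry, take up, store or export lipid was followed in injured mouse spinal cord: Apoe, Apoc1, Nr1h3, Abca1, Abcg1, Scarb1, Lpl, Cd36, Msr1 and Soat1. They were chosen by name, as the rows of the deposited count and TPM tables that carry these gene symbols, and all 10 of 10 were found among 57180 genes and passed the filter on low counts. Bulk RNA was sequenced from the lesion and about 0.5 cm of cord to each side of it, in 12 female C57BL/6J wild-type mice, 7 days after a clip compression at T9-T10. In OVX8_SCI7 the mice were ovariectomised 8 weeks ahead of the injury, in OVX2_SCI7 2 weeks ahead of it, and SCI7 mice had the injury alone. Each group has 4 libraries, which the labels call biological replicates, so all 3 groups share the injury and its timing and differ in ovariectomy and in the time after it. No uninjured or sham-operated cord was analysed here, and the operation itself and the loss of hormone cannot be told apart. Every label gives an age of 8 weeks, without saying at which step, and for OVX8_SCI7 this cannot be the age at collection. The groups may therefore also differ in age at ovariectomy, at injury or at collection. Age cannot be told apart from ovariectomy and the time after it. Loss of the ovaries takes away most ovarian hormone and is used in rodents as a model of osteoporosis, the setting that the series title names. Apoe (ENSMUSG00000002985) and Apoc1 lie on chromosome 7, Nr1h3 (ENSMUSG00000002108) on 2, Abca1 on 4 and Abcg1 on 17. Cd36 and Scarb1 lie on 5, Lpl and Msr1 on 8, and Soat1 on 1. These chromosomes were read from RefSeq for GRCm38.p6, while the deposited counts were made with GRCm39.

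Damaged cord is rich in myelin debris, and macrophages and microglia that engulf it must deal with a large load of cholesterol. In such cells, scavenger receptors and lipases bring lipid in, an ester-forming enzyme stores cholesterol in droplets, and transporters load it onto apolipoprotein particles for export. Liver X receptors, nuclear receptors switched on by oxysterols, are known to induce much of the export programme, including Apoe, Abca1, Abcg1 and, within a gene cluster on mouse chromosome 7, Apoc1. Apoe is made in the central nervous system mainly by astrocytes and by activated microglia and macrophages.

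The Abca1 promoter holds a copy of the motif, a direct repeat, that liver X receptors are known to bind together with the retinoid X receptor, and the Apoe promoter is shown beside it because Apoe had the most RNA and passed the test. Both windows run from 250 bases before to 50 bases after the RefSeq start, 5′ to 3′ on the minus strand of GRCm38.p6 (chr4:53159846-53160145 for Abca1 and chr7:19699139-19699438 for Apoe), and capitals mark the match to the motif, GGTNA, then 5 bases of any kind, then GGTNA, which here is read on the opposite strand.
Abca1: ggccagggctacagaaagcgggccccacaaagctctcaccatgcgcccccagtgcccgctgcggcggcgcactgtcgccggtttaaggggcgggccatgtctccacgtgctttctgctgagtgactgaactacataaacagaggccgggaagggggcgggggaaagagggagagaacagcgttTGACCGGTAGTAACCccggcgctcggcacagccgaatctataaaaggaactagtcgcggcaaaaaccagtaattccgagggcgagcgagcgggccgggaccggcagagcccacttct
Apoe: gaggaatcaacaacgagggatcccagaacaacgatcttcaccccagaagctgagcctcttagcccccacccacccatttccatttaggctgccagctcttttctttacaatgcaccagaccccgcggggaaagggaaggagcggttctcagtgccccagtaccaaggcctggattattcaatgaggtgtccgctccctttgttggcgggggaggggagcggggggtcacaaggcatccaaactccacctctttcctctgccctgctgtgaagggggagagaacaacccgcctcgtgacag
The match in Abca1 lies at -67 to -53 relative to the start and reads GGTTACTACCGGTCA on the strand that matches the motif. It also matches a stricter form with GGTTA and GGTCA around the same spacer. Of 32851 mouse promoter windows of this length searched on both strands, 0.718% held the motif and 0.0487% its stricter form. Windows were available for 5 of the 10 genes (Apoe, Nr1h3, Abca1, Cd36 and Soat1), and the letters were not found in the other 4 windows. These windows come from an older build than the one used for counting, and a match describes letters, not binding.

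Library totals ran from 18222809 to 31781728 counts, so that 3 counts correspond to 0.0944 to 0.165 CPM (counts scaled to a common library size). Of the 12 libraries, replicates 1 and 2 of OVX2_SCI7 and replicate 3 of SCI7 had the lowest sums of fibroblast markers. Their summed CPM over 8 fibroblast markers was 1134 and 3062 in the OVX2_SCI7 pair and 1375 in the SCI7 library, against 29174 and 8316 in the other OVX2_SCI7 libraries and 5107.5 to 9854 in the other SCI7 libraries. The same 3 libraries also had the lowest sums of 15 markers of lesion macrophages that engulf debris. These were 6666 and 11233 CPM in OVX2_SCI7 and 4362 CPM in SCI7, against 17839 to 40017 CPM in the others. Their sums of 8 neuron markers were the highest, at 5805, 5278 and 5428 CPM, against 1348 to 4106 CPM in the others. Values rested on these libraries for several genes below, and are given without them where they moved most. The GC trend of the libraries also moved with the groups. Measured as the Spearman correlation, over 15220 genes, of a library's deviation from the mean with the GC content of the transcript, it was 0.151 to 0.828 in OVX8_SCI7, -0.406 to 0.507 in OVX2_SCI7 and -0.802 to -0.485 in SCI7. Mitochondrially encoded genes took 2.2 to 3.36% of counts in OVX8_SCI7, 2.36 to 8.33% in OVX2_SCI7 and 5.35 to 9.35% in SCI7. Neither measure overlapped between OVX8_SCI7 and SCI7, so that these features of the libraries and the group cannot be told apart by the design.

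Apoe stood far above the other 9 genes. Per transcript length, in deposited TPM, its lowest library held 4623 and its highest 53366, while no other gene of the set exceeded 358 TPM in any library. Averaged over the 12 libraries, Apoe had 23772 TPM, Lpl 162, Cd36 162, Abca1 93.0, Soat1 71.6, Apoc1 62.8, Msr1 46.4, Abcg1 44.5, Scarb1 28.2 and Nr1h3 10.8 TPM. Below Apoe, the ranges of each pair of neighbours in this order overlapped. Ranked by TPM among all genes of its library, Apoe was 1st, 1st, 1st and 2nd in the OVX8_SCI7 libraries, 14th, 2nd, 1st and 1st in the OVX2_SCI7 libraries, and 15th, 11th, 19th and 8th in the SCI7 libraries.

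**Figure D1:**
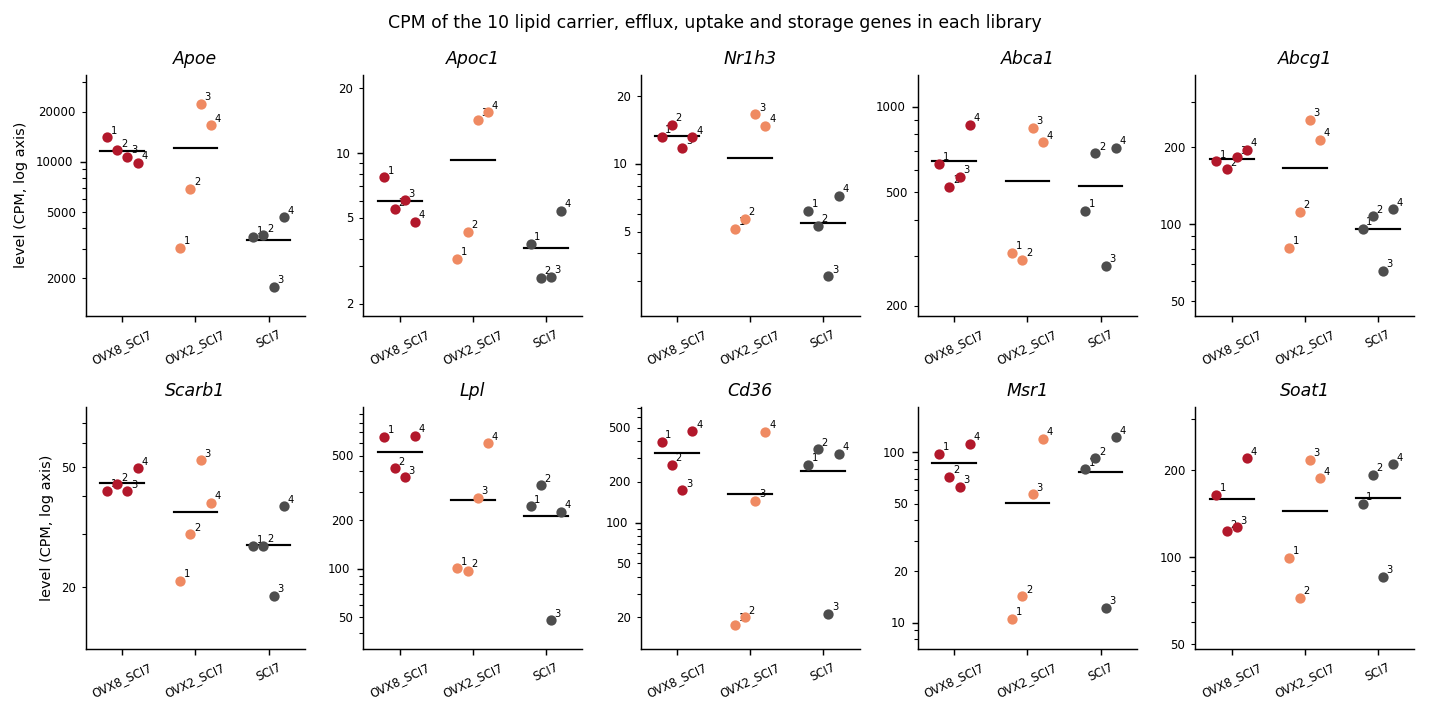
CPM of each gene (log axis, 1 panel per gene) in the 4 libraries of OVX8_SCI7, OVX2_SCI7 and SCI7. Points carry the replicate number and bars are group means; Apoe, Nr1h3, Abcg1, Lpl and Scarb1 lie higher in every OVX8_SCI7 library than in any SCI7 library, and the points of OVX2_SCI7 split into a low pair (1 and 2) and a high pair (3 and 4).

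Comparing OVX8_SCI7 with SCI7 asks whether long-standing ovariectomy goes with another lipid-handling profile in the lesion. Apoe, the carrier, and Nr1h3, the liver X receptor alpha, rose, Apoe 3.40-fold and Nr1h3 2.42-fold. None of the 3 export genes, the 3 uptake genes, Apoc1 or Soat1 passed the test. With 2 of 10 genes called, both higher, the share stood near the background, since 27.5% of the 17820 genes tested were called in this comparison (11.9% higher and 15.6% lower). The libraries of both groups did not overlap for 5 of the 10 genes, all higher in OVX8_SCI7 (Apoe, Nr1h3, Abcg1, Scarb1 and Lpl), against a background of 19.6% of genes that were higher without overlap. In TPM, Scarb1 overlapped and Apoc1 did not. An unadjusted p under 0.05 was found for 4 of the 10 genes and for 43.2% of all genes, and DESeq2 called 4 of the 10 (Apoe, Nr1h3, Abcg1 and Scarb1) and 35.9% of all. The median log2 fold change was 0.702 over the 10 genes and 0.0149 over all genes tested.

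Apoe had 14016, 11694, 10698 and 9841 CPM in OVX8_SCI7, against 3533, 3632, 1787 and 4642 CPM in SCI7. Means were 11562 ± 1803 CPM in OVX8_SCI7 and 3399 ± 1185 CPM in SCI7 (SD, n = 4 each), and even the lowest OVX8_SCI7 library was above the highest SCI7 library. The log2 fold change was 1.77 (SE 0.52, adjusted p = 0.0291, edgeR quasi-likelihood test, Benjamini-Hochberg adjusted across all genes tested). In OVX2_SCI7, Apoe had 3044, 6892, 22239 and 16509 CPM, a wider range than that of all other libraries. Replicate 1 lay among the SCI7 libraries and replicates 3 and 4 lay above every other library of the study. Its difference from SCI7, 1.84 (SE 0.52) on the log2 scale, did not pass in edgeR (adjusted p = 0.0566). Without replicate 1 of OVX2_SCI7 it was 2.14 (edgeR adjusted p = 0.00362), and without replicates 1 and 2 it was 2.52 (edgeR adjusted p = 0.00287). Without replicate 3 it was 1.38 (edgeR adjusted p = 0.116), without replicate 4 it was 1.67 (edgeR adjusted p = 0.141), and corrected for the trend of each library on GC and length it was 1.03 (edgeR adjusted p = 0.358). In bulk tissue, fewer cells of a type and less RNA per cell cannot be told apart, so these values do not say which cells carried the RNA.

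Apoc1, a small apolipoprotein encoded beside Apoe that modulates lipoprotein uptake, was far scarcer, with 49 to 298 counts in a library. It had 7.70, 5.49, 6.04 and 4.80 CPM in OVX8_SCI7, 3.23, 4.31, 14.2 and 15.4 CPM in OVX2_SCI7, and 3.799, 2.63, 2.67 and 5.395 CPM in SCI7. Replicates 3 and 4 of OVX2_SCI7 held the most Apoc1 of the 12 libraries, and OVX8_SCI7 overlapped SCI7. Fitted differences from SCI7 were 0.73 (SE 0.47, edgeR adjusted p = 0.247) for OVX8_SCI7 and 1.36 (SE 0.47, edgeR adjusted p = 0.0796) for OVX2_SCI7, which was 2.03 without replicates 1 and 2 of OVX2_SCI7 (edgeR adjusted p = 0.00287). Both comparisons share the SCI7 libraries, so their values are given side by side only.

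Nr1h3, the receptor that senses oxysterols in macrophages, had the lowest level of the 10 genes per length. OVX8_SCI7 libraries held 13.2, 14.9, 11.8 and 13.1 CPM, against 6.17, 5.31, 3.16 and 7.21 CPM in SCI7. Every OVX8_SCI7 library was above every SCI7 library, and Nr1h3 rose by 1.28 on the log2 scale (SE 0.38, edgeR adjusted p = 0.0302). OVX2_SCI7 libraries held 5.14, 5.70, 16.7 and 14.8 CPM, with replicates 1 and 2 inside the range of SCI7 and replicates 3 and 4 above it. Its log2 difference from SCI7 was 0.95 (SE 0.38, edgeR adjusted p = 0.111), and 1.53 without that low pair (edgeR adjusted p = 0.00341).

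The calls for Apoe and Nr1h3 were narrow. Leaving out replicate 1, 2 or 3 of OVX8_SCI7, or replicate 1, 2 or 3 of SCI7, brought both above the threshold of 0.05, with edgeR adjusted p of 0.0604 to 0.0838 and log2 fold changes of 1.55 to 1.80 for Apoe and 1.08 to 1.34 for Nr1h3. An offset for the trend of each library on GC content and transcript length reduced the difference to 0.97 for Apoe (SE 0.39, edgeR adjusted p = 0.271) and 0.60 for Nr1h3 (SE 0.29, edgeR adjusted p = 0.353), and left 0 of 17820 genes called, in either direction. Their transcripts are the most GC-rich of the set, with 59.5% and 57.7% GC against a median of 49.8% over genes tested.

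The transporters for export gave unequal values. Abcg1, which moves cholesterol to high-density lipoprotein, had 175.7, 163.7, 182.4 and 195.3 CPM in OVX8_SCI7, against 95.8, 107.5, 65.8 and 114.3 CPM in SCI7. The groups did not overlap, and the log2 difference of 0.90 (SE 0.32) missed the threshold in edgeR (adjusted p = 0.0506). With 81.1, 111.6, 255.9 and 213.4 CPM, OVX2_SCI7 again split into a low and a high pair, and its log2 difference from SCI7 was 0.79 (SE 0.31, edgeR adjusted p = 0.111), and 1.296 without the low pair (edgeR adjusted p = 0.0029). Abca1, which hands cholesterol to lipid-poor apolipoproteins, had 630, 524, 568 and 863 CPM in OVX8_SCI7, 307, 291, 840 and 749.9 CPM in OVX2_SCI7, and 430.4, 685, 276 and 718 CPM in SCI7. All 3 groups overlapped. Its log2 difference from SCI7 was 0.29 (SE 0.39, edgeR adjusted p = 0.590) in OVX8_SCI7 and 0.05 (SE 0.39, edgeR adjusted p = 0.938) in OVX2_SCI7.

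Scarb1, the high-density lipoprotein receptor that exchanges cholesterol in both directions, had 41.7, 43.8, 41.6 and 49.6 CPM in OVX8_SCI7, 20.97, 29.9, 52.6 and 38.0 CPM in OVX2_SCI7, and 27.3, 27.4, 18.7 and 37.1 CPM in SCI7. OVX8_SCI7 lay above SCI7 in every library. The log2 difference was 0.68 (SE 0.26, edgeR adjusted p = 0.0700), and it was 0.36 (SE 0.26, edgeR adjusted p = 0.353) for OVX2_SCI7 against SCI7, and 0.72 without replicates 1 and 2 of OVX2_SCI7 (edgeR adjusted p = 0.0299).

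The uptake genes varied most within a group. Cd36, a receptor for oxidised lipoprotein and fatty acids, had 394, 267, 173 and 472 CPM in OVX8_SCI7, 17.6, 20.1, 145 and 469 CPM in OVX2_SCI7, and 266, 347, 21.3 and 323 CPM in SCI7. The 3 libraries with the lowest fibroblast and lesion macrophage marker sums held 21.3 CPM or less, and the others held 145 CPM or more. Msr1, the class A scavenger receptor of macrophages, had 98.3, 71.8, 62.6 and 112 CPM in OVX8_SCI7, 10.5, 14.3, 56.6 and 119.6 CPM in OVX2_SCI7, and 79.5, 92.0, 12.2 and 122 CPM in SCI7. The same 3 libraries were lowest. Log2 differences between OVX8_SCI7 and SCI7 were 0.45 (SE 0.96) for Cd36 and 0.17 (SE 0.73) for Msr1, and without replicate 3 of SCI7 they were 0.06 and -0.20. For OVX2_SCI7 against SCI7 they were -0.56 (SE 0.96) and -0.61 (SE 0.73), and without replicates 1 and 2 of OVX2_SCI7 they were 0.36 and 0.21. Neither gene was called in any of the 3 comparisons, and in both comparisons with SCI7 the standard errors exceed the differences.

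Lpl, the lipase that releases fatty acids from lipoprotein triglyceride and that foamy macrophages also make, had 656, 419, 368 and 663 CPM in OVX8_SCI7, 101, 97.2, 275 and 596 CPM in OVX2_SCI7, and 243, 328, 48.0 and 226 CPM in SCI7. OVX8_SCI7 lay above SCI7 in every library. The log2 difference, 1.32 (SE 0.62), did not pass in edgeR (adjusted p = 0.126), and it was 0.98 without replicate 3 of SCI7. With replicates 1 and 2 of OVX2_SCI7 out of the fit, its edgeR adjusted p was 0.0484, and 6 of the 10 genes were called (Apoe, Nr1h3, Abcg1, Scarb1, Lpl and Apoc1) against 41.9% of all genes. Against SCI7, Lpl in OVX2_SCI7 differed by 0.34 (SE 0.62, edgeR adjusted p = 0.722). Lpl counts were fractional in 11 of 12 libraries, as RSEM gives where a read is shared between entries, and the deposited table classes its entry as nonsense-mediated decay.

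Fat and muscle also express Lpl and Cd36. Summed over 8 adipocyte markers, the libraries held 0.722 to 2.02 CPM in OVX8_SCI7, 0.520 to 1.56 CPM in OVX2_SCI7 and 0.588 to 25.04 CPM in SCI7, with 25.04 in replicate 4, and Adipoq was at 0.0442 to 0.328 CPM in OVX8_SCI7. Skeletal muscle markers summed to 8.45 to 94.0 CPM in OVX8_SCI7, 3.02 to 24.9 CPM in OVX2_SCI7 and 5.71 to 19.5 CPM in SCI7. Replicate 2 of OVX8_SCI7, at 8.45 CPM, lay within the range of SCI7. Of the 10 markers, 4 rose in OVX8_SCI7 over SCI7 (median log2 difference 1.94), against 11.9% of all genes. The part of muscle in the Lpl values was not tested.

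Soat1, which esterifies cholesterol for storage in droplets, had 164.5, 123, 127 and 219 CPM in OVX8_SCI7, 99.7, 72.5, 217 and 187 CPM in OVX2_SCI7, and 153, 193, 85.6 and 209 CPM in SCI7. The groups overlapped throughout. Its log2 difference from SCI7 was -0.02 (SE 0.36) in OVX8_SCI7 and -0.15 (SE 0.36) in OVX2_SCI7, and neither passed in edgeR (adjusted p = 0.978 and 0.788).

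**Figure D2:**
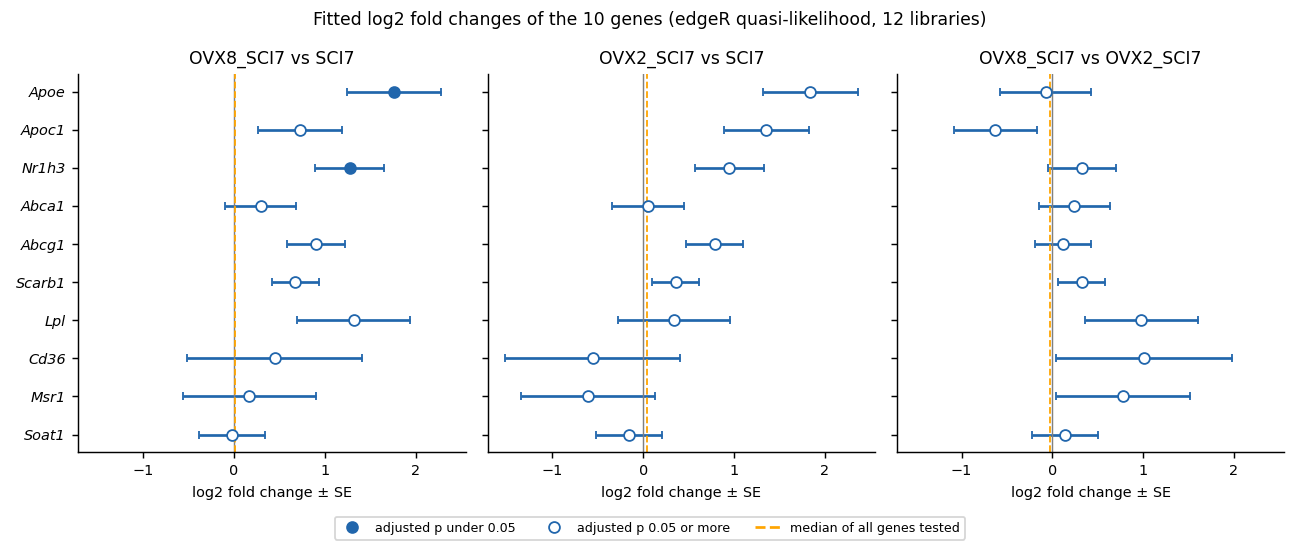
Fitted log2 fold change of each gene with its standard error in the 3 comparisons, with filled points where the adjusted p is under 0.05 and a dashed line at the median of all genes tested. Apoe (1.77) and Nr1h3 (1.28) are filled in OVX8_SCI7 against SCI7, and all points are open in the other 2 panels.

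In OVX2_SCI7 against SCI7, none of the 10 genes was called, and none of 17820 genes was called either (0%, edgeR quasi-likelihood test), while DESeq2 called 3701 (20.8%), 5787 (32.5%) passed 0.05 before adjustment in edgeR, and the edgeR fit with the GC offset called 8 (0.0449%). None of those 8 was among the 10. Among the 10 genes, 4 had an unadjusted p under 0.05 in edgeR (Apoe, Apoc1, Nr1h3 and Abcg1), and DESeq2 called Apoe and Apoc1 of them. The libraries overlapped for all 10 genes, against a background of 6.13% higher and 6.29% lower without overlap. The median log2 difference was 0.348 over the 10 genes. With replicates 1 and 2 of OVX2_SCI7 left out, 5 of 10 were called, all higher (Apoe, Apoc1, Nr1h3, Abcg1 and Scarb1), against 38.7% of all genes. These were the lower libraries of their group for each gene of the set, so leaving them out raised the differences by construction. Leaving out replicate 1 alone gave 4 of the 10 in OVX2_SCI7 against SCI7 (Apoe, Apoc1, Nr1h3 and Abcg1), against 34.7% of all genes, and 4 in OVX8_SCI7 against SCI7 (Apoe, Nr1h3, Abcg1 and Scarb1), against 37.2%.

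The comparison of OVX8_SCI7 with OVX2_SCI7 asks whether the time since ovariectomy matters, from which age cannot be told apart. None of the 10 genes was called in edgeR, nor was any other gene (0% called), with 393 genes (2.21%) at an unadjusted p under 0.05 and 6 genes (0.0337%) called by DESeq2, none of the 10 in either count. The libraries overlapped for all 10, against 0.241% of genes higher and 1.08% lower without overlap. Apoe differed by -0.07 (SE 0.50), Apoc1 by -0.63 (SE 0.46), Lpl by 0.98 (SE 0.62) and Cd36 by 1.00 (SE 0.97) on the log2 scale. All 10 values lay between -0.63 and 1.00. Taking the 3 groups in 1 joint test, none of the 10 was called in edgeR (Apoe adjusted p = 0.0546, Nr1h3 adjusted p = 0.0762), against 14.8% of all genes.

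Across the 12 libraries the other 9 genes followed Apoe to differing degrees. Abcg1, Nr1h3, Scarb1 and Apoc1 followed it most closely, with Pearson correlations of log2(CPM + 0.5) of 0.971, 0.955, 0.901 and 0.880. Lpl and Abca1 had 0.727 and 0.657, and Msr1, Cd36 and Soat1 had 0.511, 0.507 and 0.441. Without the 2 libraries farthest from the median of Apoe, Cd36 and Msr1 had 0.0399 and 0.00222, and Abcg1 had 0.947. Taken as deviations from the group means, all 9 correlated with Apoe, with correlations of 0.938 for Nr1h3, 0.959 for Abcg1, 0.848 for Msr1, 0.820 for Cd36, 0.818 for Abca1, 0.758 for Lpl and 0.741 for Soat1, and of 0.915 for Scarb1 and 0.911 for Apoc1. Cd36 and Msr1 correlated with each other at 0.992, and Abca1 and Soat1 at 0.943. These values describe 12 libraries in 3 groups, which share depth, cell mixture and GC trend. The 4 genes that followed Apoe most closely have transcripts with 52.7 to 57.7% GC, and the 5 others have 38.4 to 47.5%.

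**Figure D3:**
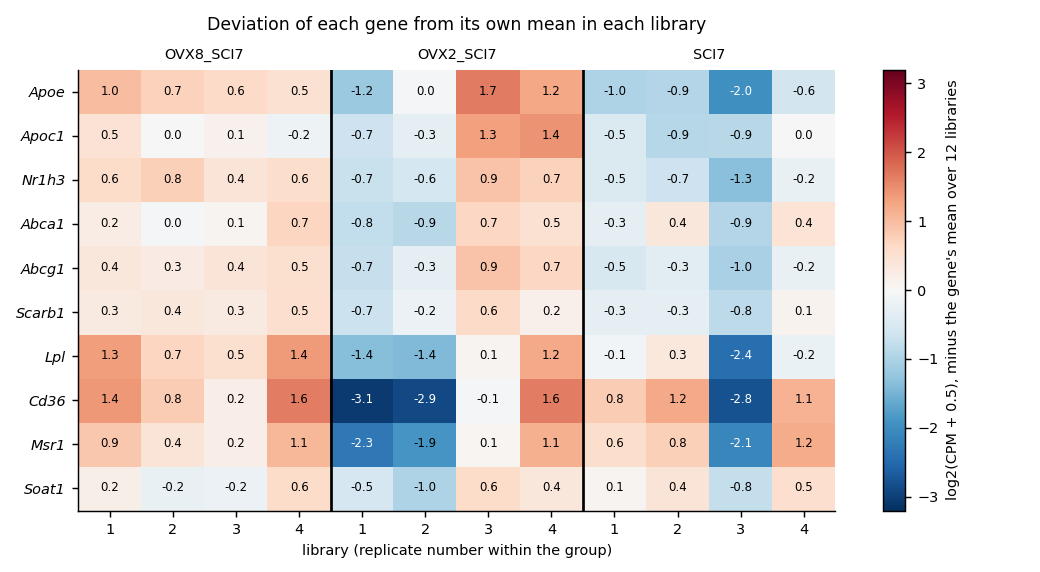
Log2(CPM + 0.5) of each gene in each library, minus the mean of that gene over the 12 libraries; red is above and blue below the mean. Apoe, Nr1h3 and Abcg1 are above their means in all 4 OVX8_SCI7 libraries and below them in all 4 SCI7 libraries, while Cd36 and Msr1 are deep blue in 3 libraries (OVX2_SCI7 1 and 2, SCI7 3) and above their means in 3 of 4 SCI7 libraries.

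The GC offset moved these 4 genes and the 5 others in opposite directions. In OVX8_SCI7 against SCI7 it lowered the log2 difference of Abcg1 to 0.62, of Apoc1 to 0.16 and of Scarb1 to 0.11, and raised that of Lpl to 1.83 (SE 0.65, edgeR adjusted p = 0.23), of Cd36 to 1.37 (SE 1.02), of Msr1 to 1.08 (SE 0.80), of Soat1 to 0.44 and of Abca1 to 0.47. With the offset, all 10 values were above 0 and none was called. The GC trend and the group cannot be told apart here, so the offset also removes any difference between the groups that follows GC content.

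**Figure D4:**
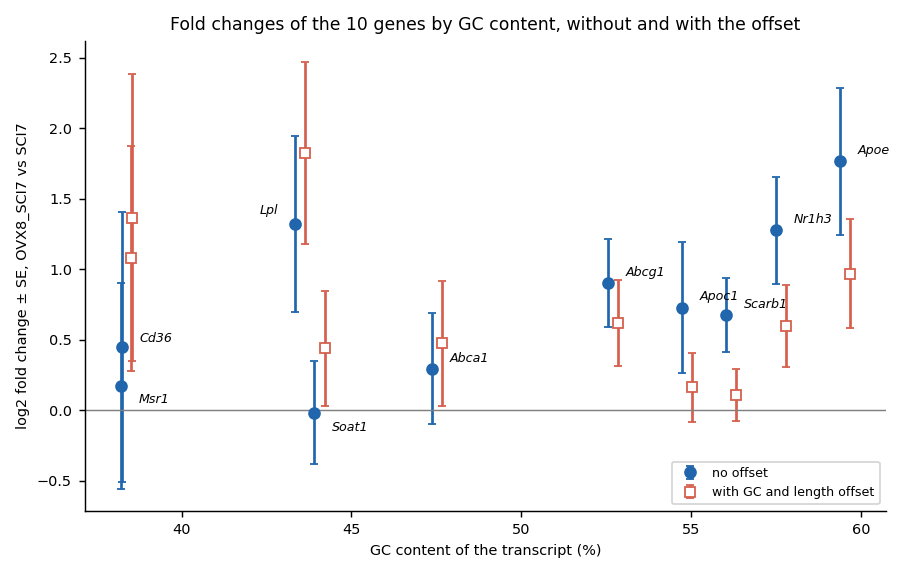
Log2 fold change of each gene between OVX8_SCI7 and SCI7 with its standard error, against the GC content of its transcript in percent, without (filled) and with (open) the offset for GC content and length. Without the offset the 5 genes above 50% GC lie at 0.68 to 1.77, and with it at 0.11 to 0.97, while the 5 genes below 50% move up.

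Macrophage and microglial markers, summed over 14 genes, reached 5016 to 5753 CPM in OVX8_SCI7, 2431 to 6793 CPM in OVX2_SCI7 and 1434 to 4106 CPM in SCI7. In OVX8_SCI7 against SCI7, 3 of 14 rose and none fell, against 27.5% of all genes called (11.9% higher), with a median log2 difference of 0.822. Csf1r, the receptor on which these cells depend, had 508 to 622 CPM in OVX8_SCI7 and 245 to 395 CPM in SCI7 (log2 difference 0.70, edgeR adjusted p = 0.0205). Of 10 astrocyte markers 1 fell and none rose, with a median of -0.381, and they summed to 10346 to 12258 CPM in OVX8_SCI7, 6554 to 15353 CPM in OVX2_SCI7 and 10815 to 13184 CPM in SCI7. The part of cell numbers in the Apoe values was not tested beyond the ratios that follow.

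Relative to the macrophage markers of the same library (log2 CPM of Apoe minus the mean log2 CPM of the 14 markers), Apoe stood at 5.69, 5.72, 5.48 and 5.27 in OVX8_SCI7, at 4.80, 5.55, 6.22 and 5.69 in OVX2_SCI7, and at 4.49, 4.55, 4.84 and 4.64 in SCI7. OVX8_SCI7 lay above SCI7 in 4 of 4 libraries, and OVX2_SCI7 overlapped it in replicate 1. The difference between OVX8_SCI7 and SCI7 was 0.91 (two-sided exact permutation p = 0.0286, the smallest that 4 against 4 allows, and 0.0857 after Benjamini-Hochberg adjustment over 6 tests). It was 0.34 with the GC and length offset subtracted, again without overlap. Between OVX2_SCI7 and SCI7 it was 0.93 (exact permutation p = 0.0571, adjusted 0.114), and between OVX8_SCI7 and OVX2_SCI7 it was -0.02 (exact permutation p = 0.914, adjusted 0.914). Set against the 10 astrocyte markers, Apoe differed by 2.12 between OVX8_SCI7 and SCI7 (exact permutation p = 0.0286, adjusted 0.0857), by 1.75 between OVX2_SCI7 and SCI7 (exact permutation p = 0.171, adjusted 0.257) and by 0.37 between OVX8_SCI7 and OVX2_SCI7 (exact permutation p = 0.714, adjusted 0.857). None of the 6 passed after adjustment. Even comparisons at the smallest possible exact permutation p, 0.0286, stood at 0.0857 after it, so that not passing says little. With the GC and length offset subtracted, the macrophage ratio differed by 0.47 between OVX2_SCI7 and SCI7, and the astrocyte ratio by 1.27 between OVX8_SCI7 and SCI7 and by 1.02 between OVX2_SCI7 and SCI7.

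The other genes differed in how they stood to the macrophage markers. Nr1h3 lay at -4.37 to -3.90 in OVX8_SCI7, at -4.69 to -4.16 in OVX2_SCI7 and at -4.87 to -4.30 in SCI7, so that its groups overlapped on this scale. Soat1 lay at -0.92 to -0.21 in OVX8_SCI7, at -1.02 to -0.14 in OVX2_SCI7 and at -0.04 to 0.46 in SCI7, so that both ovariectomised groups were below every SCI7 library. Abca1 lay at 1.22 to 1.76 in OVX8_SCI7, at 0.98 to 1.49 in OVX2_SCI7 and at 1.45 to 2.15 in SCI7. Abcg1 lay at -0.63 to -0.38 in OVX8_SCI7, at -0.59 to -0.22 in OVX2_SCI7 and at -0.72 to 0.08 in SCI7, which overlap. Cd36 was at -0.47 to 0.89 in OVX8_SCI7, at -2.87 to 0.55 in OVX2_SCI7 and at -1.55 to 1.16 in SCI7. These are values without a test, and the markers have a median of 51.5% GC, above the 44.1% of Soat1 and below the 59.5% of Apoe.

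**Figure D5:**
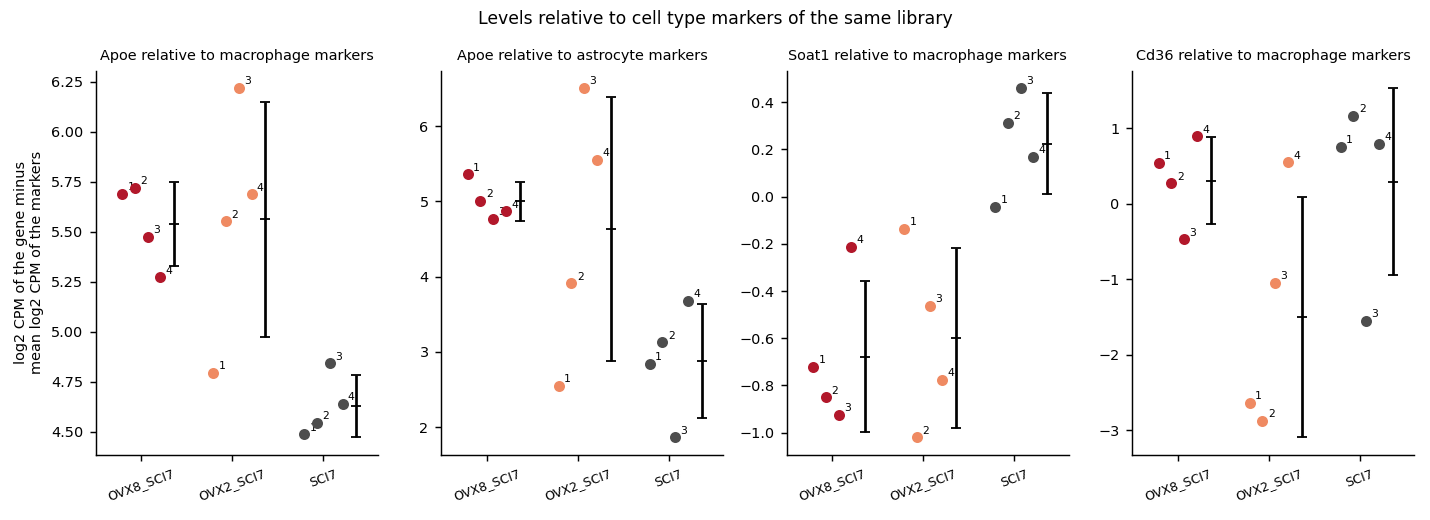
Apoe, Soat1 and Cd36 relative to macrophage markers and Apoe relative to astrocyte markers, as log2 CPM of the gene minus the mean log2 CPM of the markers in the same library. Points are libraries with their replicate number and bars are mean ± SD (n = 4); Apoe is higher and Soat1 lower in all OVX8_SCI7 libraries than in any SCI7 library relative to the macrophage markers.

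The wider pathway was read from 7 gene lists around these 10 genes. Of the liver X and retinoid X receptors, their cofactors and other targets, 6 of 19 tested rose in OVX8_SCI7 against SCI7 and none fell, with a median log2 difference of 0.559. Over all genes 27.5% were called, 11.9% higher and 15.6% lower, and all lists below are to be read against these shares. Without replicates 1 and 2 of OVX2_SCI7 in the fit, 9 rose and 1 fell, against 41.9% of all genes called. Nr1h2, liver X receptor beta, had 55.9 to 82.6 CPM in OVX8_SCI7 and 29.6 to 35.3 CPM in SCI7 and rose by 1.09 (SE 0.21, edgeR adjusted p = 0.0143). A further 4 were named after their values were seen. They were Pltp, a phospholipid transfer protein and receptor target (1.55, SE 0.46), the retinoid X receptors Rxra (0.81, SE 0.28) and Rxrb (0.98, SE 0.23), and Srebf1, a regulator of fatty acid synthesis (0.65, SE 0.17). Their edgeR adjusted p ran from 0.0153 to 0.0467. With the GC offset none of the 19 was called, the median was 0.0426 and Srebf1 was at -0.06. Over 25 alternative ways of processing, Nr1h2 ran from 0.23 to 1.19 and Rxrb from 0.112 to 1.09. Rxra ran from 0.206 to 0.945 and Pltp from 0.879 to 1.65.

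Among 21 lipoprotein and scavenger receptors, 4 rose and 1 fell, against 27.5% of all genes called, with a median of 0.288. Stab2, a scavenger receptor of sinusoidal endothelium, was scarce, at 2.54 to 4.04 CPM in OVX8_SCI7 and 0.436 to 1.21 CPM in SCI7 (log2 difference 1.97, SE 0.47, edgeR adjusted p = 0.0160). Lrp4 rose by 0.72 (SE 0.18, edgeR adjusted p = 0.0187). Lrp1, the large receptor that takes up Apoe particles, and Vldlr, another Apoe receptor, were picked out after their values were seen. Lrp1 had 1320 to 1537 CPM in OVX8_SCI7 and 451 to 961 CPM in SCI7 and rose by 1.13 (SE 0.33, edgeR adjusted p = 0.0275). Vldlr had 41.1 to 44.8 CPM in OVX8_SCI7 and 66.9 to 91.7 CPM in SCI7 and fell by 0.95 (SE 0.27, edgeR adjusted p = 0.0265).

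Of 12 genes tested in the list of other apolipoproteins and lipid carriers, none was called in edgeR, against 27.5% of all genes. An unadjusted p under 0.05 was found for 3 of them, against 43.2% of all genes, and DESeq2 called 2, against 35.9%. Apobr, a macrophage receptor for lipoprotein that carries apolipoprotein B, differed by 1.51 (SE 0.54, edgeR adjusted p = 0.0557), and Apoo by -0.62 (SE 0.24, edgeR adjusted p = 0.0718). Apobr is thus a receptor and no carrier, and Apoo is also counted in the cholesterol handling list below. Of 15 other ABC lipid transporters, 2 rose and 1 fell (median 0.161), against 27.5% of all genes called, and Abca5 fell by 1.22 (SE 0.38, edgeR adjusted p = 0.0353). Cholesterol handling in lysosome, ester cycle and oxysterol metabolism split, with 5 of 20 higher and 3 lower (median 0.326), against 11.9% of all genes higher and 15.6% lower. There Osbpl5, an oxysterol-binding protein relative, rose by 0.69 (SE 0.15, edgeR adjusted p = 0.0143) and Lipe, a neutral lipase that also cleaves cholesterol esters, by 0.80 (SE 0.18, edgeR adjusted p = 0.0149). Over 25 alternative ways of processing, Osbpl5 ran from 0.0866 to 0.739 and Lipe from 0.241 to 0.978.

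Of 6 partners of Lpl that could be tested, 2 rose, against 11.9% of all genes, with a median of 0.713. Both were lipase maturation factors, Lmf1 by 0.63 (SE 0.18, edgeR adjusted p = 0.0245) and Lmf2 by 0.80 (SE 0.27, edgeR adjusted p = 0.0482). Of 18 genes of fatty acid uptake and its PPAR control, 3 rose and 2 fell, against 27.5% of all genes called, with a median of 0.254. Acsl4, which activates arachidonate and other long fatty acids, had 25.6 to 37.4 CPM in OVX8_SCI7 and 61.9 to 66.2 CPM in SCI7 and fell by 1.09 (SE 0.14, edgeR adjusted p = 0.0143). Slc27a1, a fatty acid transporter, rose by 0.90 (SE 0.19, edgeR adjusted p = 0.0143). Over 25 alternative ways of processing, Acsl4 ran from -1.22 to -0.173 and Slc27a1 from 0.147 to 0.991, and each lost its call in 3 of them.

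In OVX2_SCI7 against SCI7, none of the genes in the 7 lists was called in edgeR, as for all genes. Medians there were 0.499 for the liver X list, 0.653 for apolipoproteins, 0.298 for receptors, 0.233 for ABC transporters, 0.313 for cholesterol handling, 0.541 for lipase partners and 0.188 for fatty acid uptake, against 0.0381 over all genes. The gene of each list with the smallest p was Nr1h2 (0.94), Saa3 (2.16), Stab2 (1.87), Abca3 (0.44), Cyp27a1 (0.53), Lmf1 (0.55) and Acsl4 (-0.82). Acsl4, with 32.1 to 42.2 CPM in OVX2_SCI7, stayed below all SCI7 libraries in CPM, also in replicates 1 and 2. Its fitted log2 difference ran from -0.92 to -0.0332 over 25 alternative ways of processing. Saa3, a lipid carrier of the acute phase, reached 15.1 CPM in replicate 3 and lay at 0.689 to 4.66 CPM in the other OVX2_SCI7 libraries and at 0.708 to 1.92 CPM in SCI7.

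By likeness to Apoe over the 12 libraries, among the 12468 genes that averaged 5 CPM or more, the closest outside the set were Ergic3, Crlf2, Parp10, Ppt2 and H2-T23, with Pearson correlations of 0.991 to 0.995. H2-T23 belongs to the class I family, whose members can share reads. In the same order Abcg1 was 143rd, Nr1h3 390th and Scarb1 1353rd.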

How the data were processed

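Bulk RNA from 12 libraries was measured as paired-end RNA-seq. The authors deposited RSEM expected counts and TPM per gene, per the file headers and the submitters' processing notes, which name fastp 0.23.4, HISAT2 2.2.1, RSEM 1.3.3, DESeq2 1.42.0 and GRCm39. FPKM values were not used, nor were 9 value columns that match no sample. The library kit and its strand are not given in the sources used here, so reads of overlapping and antisense genes cannot be told apart.

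Expected counts were rounded, filtered with filterByExpr, scaled by TMM and tested with edgeR 4.0.16 (R 4.3.3) by the robust quasi-likelihood test, in 1 fit of all 12 libraries, with Benjamini-Hochberg adjustment over 17820 genes and a threshold of 0.05. The common biological coefficient of variation was 0.312. CPM were computed here from TMM-scaled totals. Apoe relative to markers was tested with two-sided exact permutation tests over libraries. Alternatives used DESeq2 1.42.0, limma 3.58.1 and a GC and length offset from GENCODE M21 transcripts. Scripts were run on simulated counts that had no GC trend and no differences in cell mixture. That run therefore does not cover the GC trend of these libraries.

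Replicates of each group differed beyond sampling noise (chi-square per gene 13.1 to 394), so each was counted as a library of its own. The 10 genes and all lists were chosen with earlier results of these data known. From each list the text names up to 2 genes with the smallest p in OVX8_SCI7 against SCI7 and 1 in OVX2_SCI7 against SCI7, and from the likeness to Apoe the leading 5. Some genes that this rule names are not reported here.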

Additional observations from a re-analysis of the deposited data

How the results depend on the processing

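Genes called in OVX8_SCI7 against SCI7, 4893 in all and 2 of the 10, numbered 3257 with no filter, 11219 and 5 with voom quality weights, 3000 with limma-trend on TPM, 7426 and 5 with 8 libraries alone, 7719 and 6 without replicates 1 and 2 of OVX2_SCI7, 0 and 0 with the GC and length offset, 1 and 0 with the offset and the replicate block, and 4 of the 10 with DESeq2. With the replicate block, 0 of the 10 were called. Same-numbered libraries correlated at -0.626 to 0.500 in their deviations from group means. The labels state no pairing, and whether the numbers pair the libraries was not tested. In OVX2_SCI7 against SCI7, with 0 called, the counts were 494 with library totals only, 14 with no filter, 1144 with the stricter filter, 3701 and 2 of the 10 with DESeq2, 893 with voom, 9694 and 5 with quality weights, 16 with limma-trend, 2 with 8 libraries alone, 8 with the offset, and 7140 and 5 without replicates 1 and 2 of OVX2_SCI7. In OVX8_SCI7 against OVX2_SCI7 they were 6 with DESeq2 and 1 with quality weights. Leaving out 1 library gave 0 to 6710 genes and 0 to 4 of the 10 in OVX8_SCI7 against SCI7, 0 to 6264 and 0 to 4 in OVX2_SCI7 against SCI7, and 0 to 1 genes in OVX8_SCI7 against OVX2_SCI7. Where direction or call changed below, the cause was not tested.

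In OVX8_SCI7 against SCI7, quality weights turned Abca1 to -0.059, Cd36 to -0.095 and Msr1 to -0.12. Soat1 was at 0.022 with library totals, 0.026 with no filter, 0.0325 with voom, 0.18 with limma-trend, 0.44 with the offset and 0.43 with offset and block. With the offset, Srebf1 was at -0.062 (-0.060 with the block) and Lmf1 at -0.0905 (-0.0901 with the block). In OVX2_SCI7 against SCI7, Abca1 was at -0.00657 with voom, -0.12 with limma-trend, -0.00897 with the block and 0.60 without replicates 1 and 2 of OVX2_SCI7, where Lpl was at 1.05. Cd36 was at 0.055 with quality weights, 0.34 with the offset, 0.032 with offset and block and 0.36 without replicates 1 and 2 of OVX2_SCI7. Under the same settings Msr1 was at 0.069, 0.27, 0.098 and 0.21, and Soat1 at 0.35, 0.28 and 0.34 under the last 3. Scarb1 was at -0.0976 with the offset and -0.0979 with offset and block, and Lmf1 at -0.00673 with the offset. In OVX8_SCI7 against OVX2_SCI7, Apoe was at 0.28 with voom, 0.37 with limma-trend, 0.097 with the block, 0.030 with offset and block and -0.74 without replicates 1 and 2 of OVX2_SCI7, and Cd36 at -0.15 with quality weights. Leaving out 1 library gave -0.20 to 0.49 for Msr1 and -0.23 to 0.14 for Soat1 in OVX8_SCI7 against SCI7, -0.23 to 0.27 for Abca1, -0.41 to 0.63 for Lpl, -1.97 to -0.18 for Cd36, -1.49 to -0.28 for Msr1 and -0.42 to 0.08 for Soat1 in OVX2_SCI7 against SCI7, and -0.38 to 0.39 for Apoe in OVX8_SCI7 against OVX2_SCI7.

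Apoe relative to macrophage markers had, with the replicate block, the same difference of 0.91 between OVX8_SCI7 and SCI7, which equal numbers of libraries fix, so that only its p could change (exact permutation p = 0.125, the smallest that 4 pairs allow). It was 0.85 to 1.00 with 1 library left out. Relative to astrocyte markers it was 2.12 with the block (exact permutation p = 0.125), and 1.79 to 2.39 with 1 library left out. Between OVX8_SCI7 and OVX2_SCI7 the macrophage ratio was 0.00374 with summed markers and -0.28 to 0.19 with 1 library left out, and the astrocyte ratio was -1.03 without replicates 1 and 2 of OVX2_SCI7 and -0.32 to 1.00 with 1 library left out. The offset for these ratios was chosen after seeing the data. Over 25 alternatives the Apoe difference between OVX8_SCI7 and SCI7 ran from 0.969 to 1.98, with adjusted p from edgeR, DESeq2 and limma of 5.8e-05 to 0.387, and 10 of them lost the call. Apoc1, with 49 to 298 counts in a library, and Nr1h3 rest on the fewest reads of the set.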

Other observations

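Markers of lesion macrophages that engulf debris, 15 genes, summed to 25169 to 33160 CPM in OVX8_SCI7, 6666 to 40017 CPM in OVX2_SCI7 and 4362 to 27497 CPM in SCI7, and 1 of 15 rose in OVX8_SCI7 against SCI7, against 11.9% of all genes, with a median log2 difference of 0.882. That gene, Trem2, a lipid-sensing receptor of microglia that binds Apoe, had 375, 288, 250 and 246 CPM in OVX8_SCI7, 66.1, 134.5, 445 and 434 CPM in OVX2_SCI7, and 101, 107, 28.3 and 132 CPM in SCI7. Its log2 difference was 1.66 (SE 0.57, edgeR adjusted p = 0.0499), and its order over the 12 libraries was that of Apoe (Spearman rho 1, as a description). Ptpn18, Spsb2, Snx8 and Cybc1 also had a rho of 1 with Apoe, so this order is not particular to Trem2. By Pearson correlation with Apoe (0.976), Trem2 was 80th. C1qa, a complement subunit made by the same cells, had 526 to 810 CPM in OVX8_SCI7, 198 to 1035 CPM in OVX2_SCI7 and 92.3 to 349 CPM in SCI7, and rose by 1.45 (SE 0.49, edgeR adjusted p = 0.0459). Both were named after their values were seen.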
